A study of Ailuropoda melanoleuca with 25 samples.

Results

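Scaffold HIC_ASM_4 of a giant panda genome assembly carries 1162 gene models in the tables, and 373 of them, numbered 10 to 545, form the block described here. These are 32.1% of the models on the scaffold and 373 of the 22924 models in all. The members were selected on measured RNA levels, as a raised stretch. Which libraries that choice used is not recorded, so the levels of the block are given as a description, without a test of the block as a whole. The stretch was set against the 752 models from evm.model.HIC_ASM_4.573 onward on the same scaffold, leaving out evm.model.HIC_ASM_4.1759, and these are called the comparison models. The tables give no coordinates, and the model number was read as the order along the scaffold. Models are named by identifier, since 0 identifiers could be paired with a gene name, and after its first mention evm.model.HIC_ASM_4.49 is written as model 49.

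Messenger RNA of giant panda (Ailuropoda melanoleuca) cells was sequenced in 25 libraries in 12 groups, from a study that made induced pluripotent stem cells (GPiPSC) out of primary fibroblasts (PF) with episomal vectors, circular DNA that carries the reprogramming factors without integrating. Fibroblasts and GPiPSC were sampled under the names LB and XR, as LB PF, XR PF, LB GPiPSC and XR GPiPSC. Reprogramming cultures were sampled at stage I day 8, stage I day 24 and stage II day 8, and at day 16 as a control and with A83-01, an inhibitor of TGF-beta type I receptors. A condition named BACL had 3 groups of GPiPSC, called BACL control, BACL LB GPiPSC and BACL-CHIR99021, of which the last carries the name of an inhibitor of glycogen synthase kinase 3. LB GPiPSC had 3 libraries and each of the other 11 groups had 2. Nothing in the labels explains LB, XR or BACL, or tells whether a GPiPSC group is 1 clone or several. Since replicates are not said to be separate cultures either, the spread behind each p-value may be technical. Neither LB nor XR is named for the stage and day 16 groups or for the other 2 BACL groups. All libraries carry the source label of primary fibroblasts. The fixed markers of pluripotent cells and fibroblasts could not be looked up, because none of the 16 symbols matched a model.

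Genes that are neighbours on a chromosome share their stretch of chromatin and their number of DNA copies, and the amount of RNA from a gene can follow both. Reprogramming of fibroblasts silences fibroblast genes and turns on the genes of pluripotent cells, so single genes move in both directions wherever they lie. A stretch in which most genes stand higher by a like amount can be seen beside these changes only as a shift of the median. Neither DNA copies nor chromatin were measured in these libraries.

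Of the 373 members, 280 had enough counts to be tested and 93 did not, of which 19 had 0 counts in every library. Levels of the block were taken from the 186 members with a mean over the 12 groups of at least 5 CPM (counts in each 1000000 of a library), and from 374 of the comparison models by the same rule. Members and comparison models were alike in coding length, with medians of 1059 and 1068 bases, and in level, with medians of 14.6 and 13.96 CPM over the models tested. Libraries held 8627983 to 14890260 estimated counts, and 3 counts correspond to 0.176 to 0.376 CPM. Replicate 3 of LB GPiPSC stood apart from its group over all models. Its log2 CPM correlated at 0.981 with each library of XR GPiPSC, but at 0.962 with replicates 1 and 2 of its own group (Pearson, across 17225 models, which are not independent replicates). Comparisons that include LB GPiPSC are therefore also given without that library.

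The block stood higher than the rest of its scaffold in both XR GPiPSC libraries and in LB GPiPSC replicate 3. The offset used here is the median over members of a model's log2 CPM minus its mean over the 12 groups, less the same median over the comparison models. It was 0.52 and 0.54 in XR GPiPSC replicates 1 and 2, with a mean of 0.53 ± 0.0116 (SD, n = 2), or 1.44-fold. In LB GPiPSC it was -0.035, -0.067 and 0.50 in replicates 1, 2 and 3, so the mean of 0.13 ± 0.318 (SD, n = 3) describes none of them. Replicate 3, at 1.41-fold, lay just under the XR GPiPSC libraries, while replicates 1 and 2 lay near the BACL libraries, which ran from -0.097 to -0.0036. Without replicate 3 the mean of LB GPiPSC was -0.038.

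**Figure D1:**
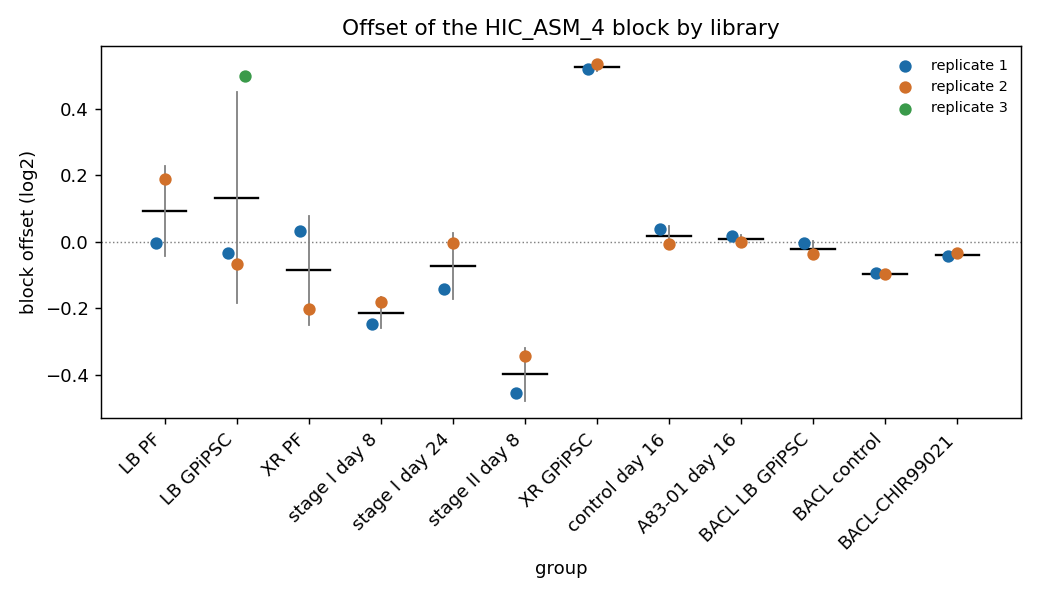
Block offset on the log2 scale (vertical axis) for each of the 25 libraries, by group (horizontal axis). Points are libraries coloured by replicate number, black lines are group means and grey lines are ± 1 SD. Both XR GPiPSC libraries (0.52 and 0.54) and LB GPiPSC replicate 3 (0.50) lie above the other 22 libraries, the highest of which is LB PF replicate 2 at 0.19.

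Among fibroblasts the offset was not uniform, LB PF having -0.0022 and 0.19 while XR PF had 0.031 and -0.20, so replicates of 1 group differed by up to 0.23. It stood at 0.039 and -0.0055 in the day 16 control and at 0.017 and -0.0015 with A83-01. Stage I day 24 had -0.14 and -0.0023. The lowest group means were those of stage II day 8, with -0.46 and -0.34 (mean -0.40 ± 0.080, SD, n = 2), and of stage I day 8, with -0.25 and -0.18 (mean -0.21 ± 0.046, SD, n = 2), the second of which lay above XR PF replicate 2. Whole scaffolds also shifted in some groups. For the 20 other scaffolds the same quantity, each against the models on all other scaffolds, had group means from -0.24 to 0.28 in XR GPiPSC and from -0.75 to 0.63 in stage II day 8. Taken in the same way, against the models on the other scaffolds, the block stood at 0.57 in XR GPiPSC, above all 20. In stage II day 8 it stood at -0.78, just below the lowest of them. The block is a part of a scaffold, chosen as a raised stretch, while those are whole scaffolds. Its place above them in XR GPiPSC is therefore fixed in part by the choice. The highest value of those scaffolds in XR GPiPSC was that of HIC_ASM_1. Members took 2.24% and 2.13% of all counts in the XR GPiPSC libraries and 1.99% in LB GPiPSC replicate 3, against 0.882% to 1.69% in the other 22.

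The higher level was shared by most members, an outcome that the choice of the stretch fixes in part. To compare GPiPSC libraries among themselves, each model was set against its mean over the 3 BACL groups, and the median of the comparison models was taken off. On this log2 ratio the median member stood at 0.63 in XR GPiPSC replicate 1 (1.55-fold), 0.62 in replicate 2 (1.53-fold) and 0.55 in LB GPiPSC replicate 3 (1.47-fold). It stood at 0.022 and -0.042 in LB GPiPSC replicates 1 and 2, and from -0.056 to 0.034 in the 6 BACL libraries, which are part of their own reference. In XR GPiPSC 163 and 162 of the 186 members lay above the median comparison model, and in LB GPiPSC replicate 3 161 did. In LB GPiPSC replicates 1 and 2 the counts were 99 and 86. The whole distribution was displaced, with lower and upper quartiles of 0.20 and 1.00 in XR GPiPSC replicate 1, 0.22 and 1.02 in replicate 2 and 0.24 and 0.93 in LB GPiPSC replicate 3, where those of LB GPiPSC replicate 1 were -0.30 and 0.35. Above in both XR GPiPSC libraries were 157 members (84.4%), against 164 of 374 comparison models (43.9%). Below in both were 18 members (9.68%), so the stretch also held models that did not share the shift.

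**Figure D2:**
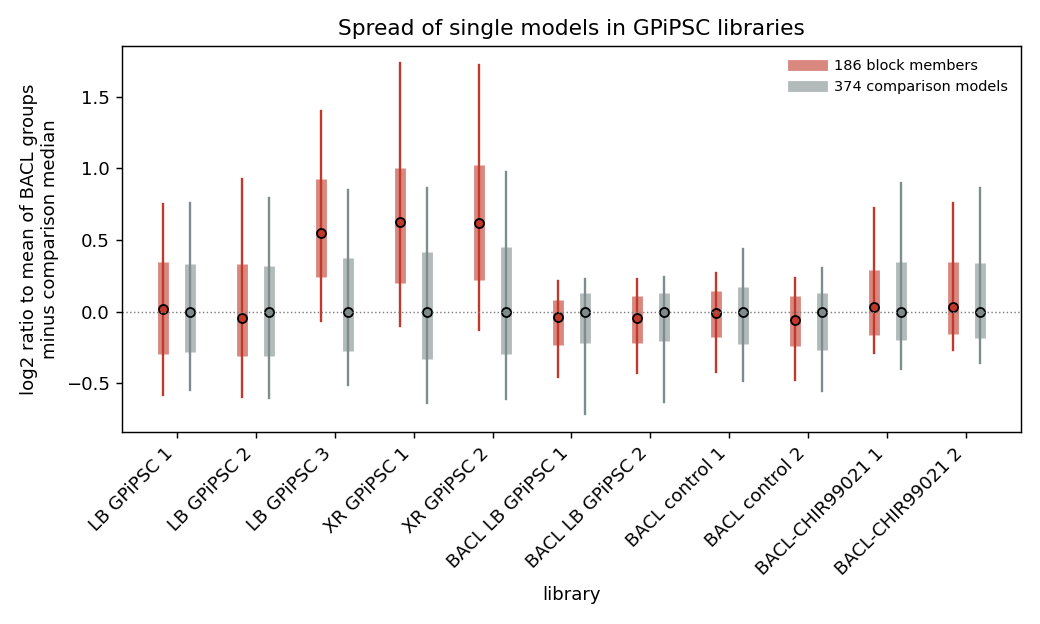
Log2 ratio to the mean of the 3 BACL groups after taking off the comparison median (vertical axis) in the 11 GPiPSC libraries (horizontal axis). Circles are medians, thick bars run from the lower to the upper quartile and thin lines from the 10th to the 90th percentile, in red for 186 block members and in grey for 374 comparison models. The lower quartile of the members lies above 0 in LB GPiPSC replicate 3 and in both XR GPiPSC libraries, at 0.24, 0.20 and 0.22.

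Along the scaffold the higher level covered the whole stretch. The 186 members were taken in 7 runs of at least 25 consecutive models, and the comparison models in 14. In XR GPiPSC replicate 1 the members' runs had medians from 0.24 to 0.85 and the comparison runs from -0.11 to 0.11. In replicate 2 they ran from 0.28 to 0.79 and from -0.23 to 0.26, and in LB GPiPSC replicate 3 from 0.32 to 0.89 and from -0.098 to 0.15. In each of these 3 libraries all 7 runs of members lay above all 14 comparison runs, which the choice of the stretch fixes in part. In each of LB GPiPSC replicates 1 and 2 only 1 run did, models 10 to 81 at 0.35 and 0.22, and in the BACL libraries 0 did. The lowest run in both XR GPiPSC libraries and in LB GPiPSC replicate 3 was that of models 154 to 216, at 0.24, 0.28 and 0.32.

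**Figure D3:**
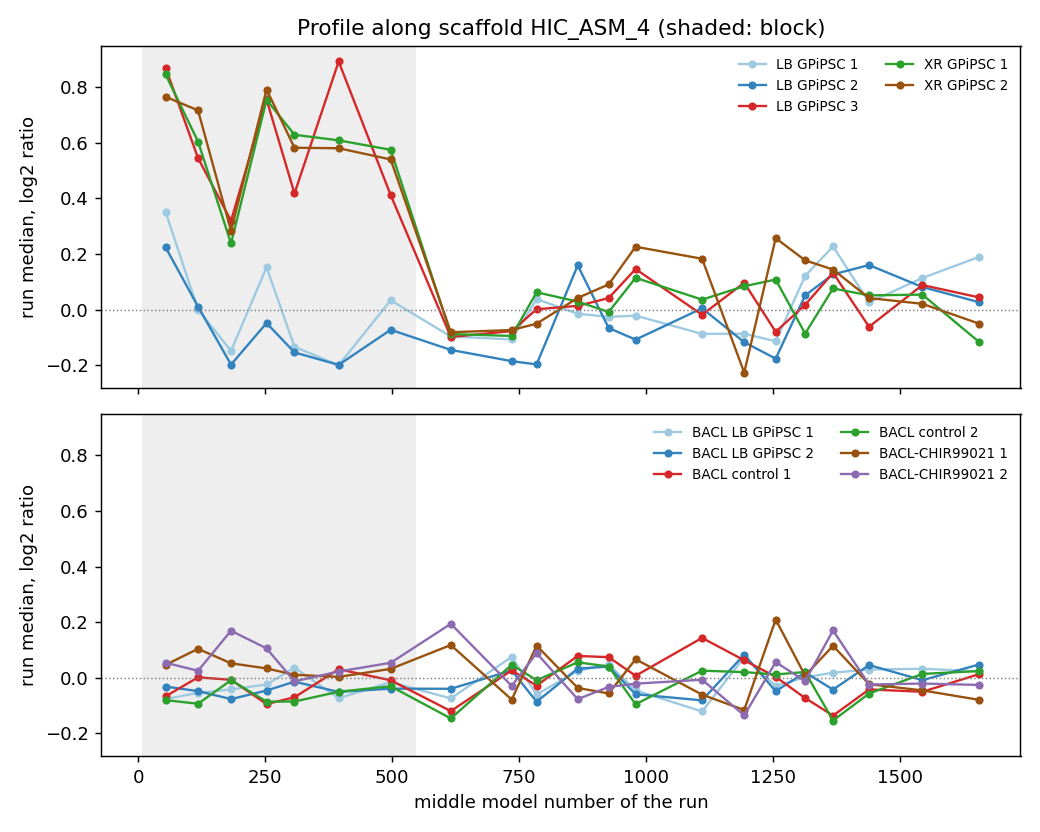
Median log2 ratio to the mean of the 3 BACL groups, less the comparison median (vertical axis), for runs of at least 25 models placed at their middle model number (horizontal axis); the upper panel shows LB and XR GPiPSC, the lower panel the BACL groups. In the shaded block LB GPiPSC replicate 3 and both XR GPiPSC libraries lie between 0.24 and 0.89, and beyond it all libraries lie between -0.23 and 0.26.

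The choice of the stretch set its ends, so the levels beside them are fixed in part. The last 10 members, models 524 to 545, had medians of 0.89 and 0.75 in XR GPiPSC and 0.69 in LB GPiPSC replicate 3. The 5 models between the stretches, numbered 552 to 569, stood at 0.71, 0.73 and 0.59 there, but they were also at 0.42 and 0.94 in LB GPiPSC replicates 1 and 2. The first 10 models outside, up to model 610, stood at -0.052, -0.038 and -0.077. Single models on both sides departed from these medians. Inside, evm.model.HIC_ASM_4.543 stood at -0.24 and -0.14 in XR GPiPSC. Outside, evm.model.HIC_ASM_4.594 stood at 1.37 and 1.205 there. Just inside the threshold, evm.model.HIC_ASM_4.545 had 173 and 146 CPM in XR GPiPSC, 89.2, 114 and 146 CPM in LB GPiPSC and 119 and 117 CPM in BACL control. Just outside it, evm.model.HIC_ASM_4.573 had 21.8 and 22.5 CPM in XR GPiPSC, 28.0, 22.7 and 24.3 CPM in LB GPiPSC and 23.4 and 25.3 CPM in BACL control. At the near end the first 10 members, models 10 to 49, stood at 0.50, 0.498 and 0.61 in those same 3 libraries. Its first member, evm.model.HIC_ASM_4.10, had 78.3 and 66.5 CPM in XR GPiPSC, 39.2, 41.7 and 84.05 CPM in LB GPiPSC and 44.8 and 48.9 CPM in BACL control. The stretch has no outside neighbour there to compare with, because only 2 models with plain numbers precede it and neither reached 5 CPM.

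Replicate 3 of LB GPiPSC differed from its own group in this stretch by as much as XR GPiPSC differed from BACL cells. Relative to the comparison models it was higher than replicate 1 by a median of 0.60 on the log2 scale (1.52-fold), with 171 of 186 members above, and higher than replicate 2 by 0.54 (1.45-fold), with 165 above. Replicate 2 differed from replicate 1 by 0.065 and XR GPiPSC replicate 2 from replicate 1 by -0.049. The largest such difference between replicates of any other group was 0.25, in LB PF. The same 3 libraries stood higher in a stretch of another scaffold, from evm.model.HIC_ASM_1.1181 to evm.model.HIC_ASM_1.2178. That stretch was likewise chosen with earlier results of these data known, so its level is a description. Against the models before it on that scaffold, and on the ratio to the BACL groups, that stretch had medians of 0.61 and 0.69 in XR GPiPSC, 0.58 in LB GPiPSC replicate 3 and 0.027 and 0.048 in LB GPiPSC replicates 1 and 2. On the offset over the 12 groups it had 0.49 and 0.56 in XR GPiPSC and 0.40 in LB GPiPSC replicate 3. Stage II day 8, at 0.21 and 0.36, was also above 0 on that offset. So were stage I day 8, at 0.20 and 0.029, stage I day 24, at 0.17 and 0.026, and XR PF replicate 2, at 0.12.

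The shift, which the choice of the stretch fixes in part, was present in each class of expression level and coding length. With models split evenly into 3 classes of mean level, the members' median log2 ratio less that of the comparison models was 0.63, 0.72 and 0.52 in XR GPiPSC replicate 1 from the lowest to the highest, 0.46, 0.76 and 0.48 in replicate 2 and 0.41, 0.67 and 0.49 in LB GPiPSC replicate 3. In 3 classes of coding length the values ran from 0.48 to 0.68 in the same libraries. LB GPiPSC replicates 1 and 2 lay between -0.15 and 0.11 in all 6 classes.

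The members with the highest levels did not all follow the median. The most abundant, evm.model.HIC_ASM_4.120, had 3206 and 3310 CPM in XR GPiPSC and 1602, 1940 and 1974 CPM in LB GPiPSC, but its highest values were 8042 CPM in stage I day 24 replicate 1 and 6750 CPM in stage II day 8 replicate 2. A like order was seen for evm.model.HIC_ASM_4.129, at 1551 and 1546 CPM in XR GPiPSC, 799.8, 1020 and 1072 CPM in LB GPiPSC and up to 3838 CPM in stage I day 24. For evm.model.HIC_ASM_4.210 the XR GPiPSC libraries, at 1782 and 1717 CPM, were above the LB GPiPSC libraries at 865, 1028 and 1361 CPM and the BACL control at 1339 and 1313 CPM. By contrast evm.model.HIC_ASM_4.136 was highest in BACL-CHIR99021, at 1098 and 1088 CPM against 484 and 467 CPM in XR GPiPSC. The fifth, evm.model.HIC_ASM_4.436, had 340 and 290 CPM in XR GPiPSC, within the 207 to 406 CPM of LB GPiPSC.

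XR GPiPSC were compared with XR PF to see which members differed between reprogrammed cells and fibroblasts of the same name. Of 280 members tested, 112 were higher in XR GPiPSC (40.0%) and 52 lower (18.6%) by edgeR's quasi-likelihood test at an adjusted p under 0.05, against 27.0% higher and 28.9% lower of all 17225 models. The median log2 fold change was 0.60 over members and 0.036 over comparison models. Since the stretch was chosen on such levels, nothing is read from these counts. In bulk RNA, fewer cells expressing a gene and less RNA per cell cannot be told apart.

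Single members changed far beyond the block's shift, in both directions. The rise of evm.model.HIC_ASM_4.376 was from 0.323 and 0.557 CPM in XR PF to 13.5 and 17.9 CPM in XR GPiPSC, a log2 fold change of 5.15 ± 0.61 (SE). For evm.model.HIC_ASM_4.98 the values were 1.29 and 0.836 CPM in XR PF and 34.7 and 29.5 CPM in XR GPiPSC, a log2 fold change of 4.89 ± 0.49 (SE). Non-overlap of the XR groups was a condition for naming a model here. Both models were also higher in all 3 LB GPiPSC libraries than in LB PF. They had 6.10 to 16.2 CPM and 17.9 to 36.1 CPM in LB GPiPSC. In LB PF they had 0 to 0.246 CPM and 0.606 to 1.31 CPM. The fall of evm.model.HIC_ASM_4.127 was from 117 CPM in both XR PF libraries to 0.515 and 0.737 CPM, a log2 fold change of -7.52 ± 0.40 (SE), and in LB it went from 181 and 122 CPM to 0.0648 to 0.257 CPM. Another, evm.model.HIC_ASM_4.268, had 40.3 and 22.9 CPM in XR PF and 0.322 and 0.491 CPM in XR GPiPSC (-6.25 ± 0.67, SE), but in LB PF it had only 0.164 and 0 CPM.

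In the same comparison for LB, LB GPiPSC had 77 members higher and 88 lower, 27.5% and 31.4% of 280, against 28.5% and 28.9% of all models. The median of members was -0.18 and that of comparison models -0.14. Without replicate 3, 62 were higher and 95 lower against 27.1% and 27.4% of all models, and the medians were -0.35 and -0.11. Whether LB and XR changes differ was tested for each model directly. In that test 6 members had a higher and 24 a lower log2 fold change in LB than in XR, 2.14% and 8.57% of 280, against 5.56% and 3.09% of all models, with a median of -0.69 over members and -0.082 over comparison models. Without replicate 3, 6 members were higher and 40 lower, against 6.50% and 4.48% of all models, and the medians were -1.02 and -0.13. The tested quantity also holds any difference between LB PF and XR PF. Against XR PF, the median log2 fold change of LB PF was 0.29 over members and 0.091 over comparison models. Of the members 8.93% were higher in LB PF and 6.79% lower, against 5.04% and 9.47% of all models.

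Against the mean of the other 11 groups, 134 members were higher in XR GPiPSC and 14 lower, 47.9% and 5% of 280, where 26.9% and 19.5% of all models were. The members' median log2 fold change was 0.68 and that of the comparison models 0.051. Fewer members were called without XR GPiPSC replicate 1. Without LB GPiPSC replicate 3, 138 members were higher and 14 lower against 27.4% and 19.7% of all models. A large difference was that of evm.model.HIC_ASM_4.49, which had 237.5 and 234 CPM in XR GPiPSC, 63.5, 87.5 and 220 CPM in LB GPiPSC and 25.2 to 38.6 CPM in the BACL libraries. It had 0 counts in all 4 fibroblast libraries and at stage I day 8, so that its lowest level in XR GPiPSC was at least 839-fold higher than 3 counts in an XR PF library. The neighbouring evm.model.HIC_ASM_4.50 showed the same order, with 51.2 and 54.0 CPM in XR GPiPSC, 19.2, 22.5 and 56.4 CPM in LB GPiPSC, 4.68 to 7.02 CPM in the BACL libraries and 0 counts in fibroblasts, at least 183-fold higher in XR GPiPSC than 3 counts in an XR PF library. Both models stood low at stage II day 8, at 10.99 and 12.03 CPM and at 0.99 and 1.08 CPM. In each, LB GPiPSC replicate 3 lay beside XR GPiPSC and not beside the other 2 LB libraries. The other model named by size in this comparison, evm.model.HIC_ASM_4.101, had 9.98 and 11.97 CPM in XR GPiPSC, 0.454, 3.61 and 8.15 CPM in LB GPiPSC and at most 2.48 CPM elsewhere.

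**Figure D4:**
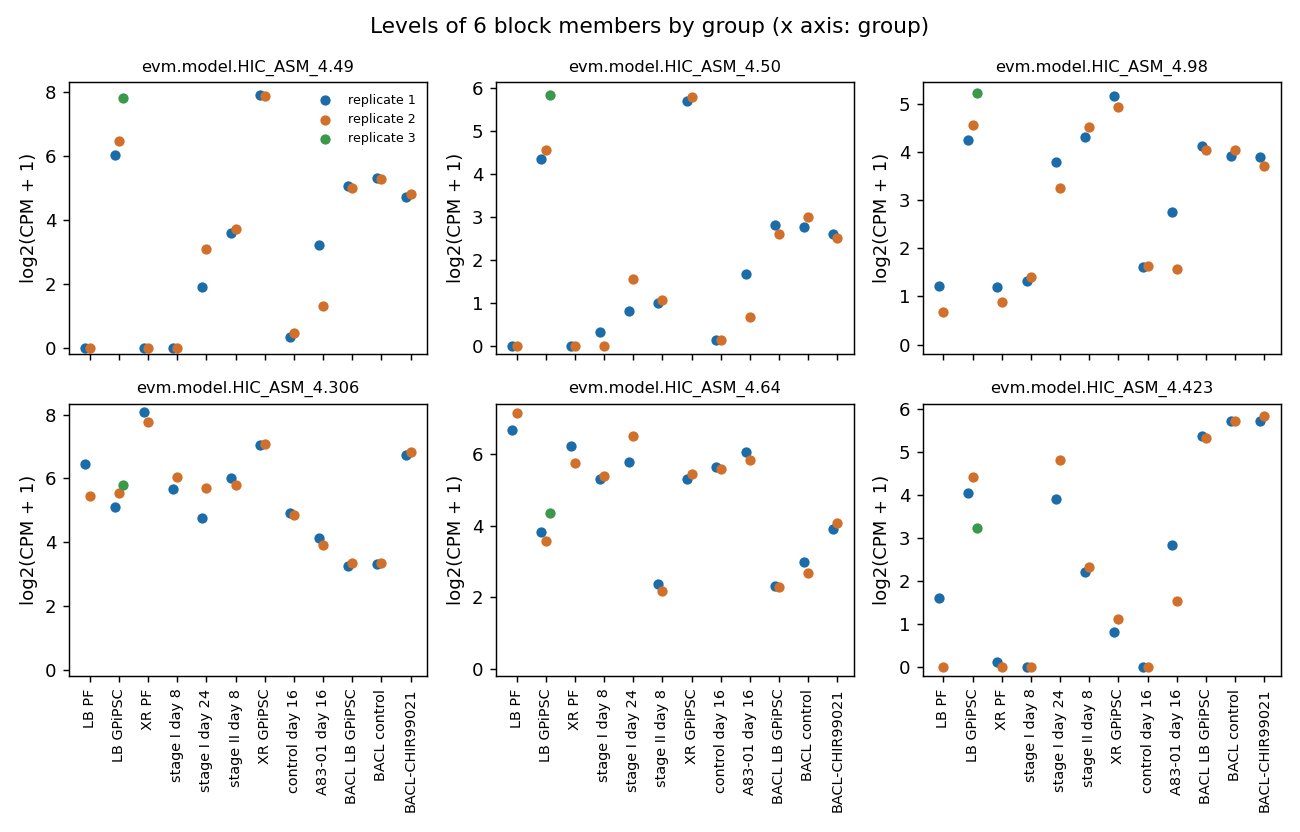
Levels of models 49, 50, 98, 306, 64 and 423 as log2(CPM + 1) (vertical axes) in the 12 groups (horizontal axis), with 1 point per library coloured by replicate number. Models 49 and 50 have 0 counts in the 4 fibroblast libraries and are highest in XR GPiPSC and LB GPiPSC replicate 3; model 423 is low in XR GPiPSC, at 0.772 and 1.17 CPM, and highest in the BACL groups, at 39.2 to 55.5 CPM.

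Between LB and XR GPiPSC few single members passed the test, although the median differed. The members' median log2 fold change of LB against XR was -0.39 and that of the comparison models 0.012, and 2 members were higher and 5 lower in LB GPiPSC, 0.714% and 1.79% of 280, against 1.20% and 1.10% of all models. Without LB GPiPSC replicate 3 the medians were -0.60 and 0.0081, and 4 members were higher and 34 lower, against 3.36% and 3.83% of all models. The counts fell to 1 member without XR GPiPSC replicate 1 and likewise without XR GPiPSC replicate 2, and to 0 when the fit held only these 2 groups. On log2(TPM + 1), 1 member was higher and 15 lower, so that 6.25% of the members' calls were higher against 28.6%, and of all models' calls 28.2% against 52.3%. Lower in LB was evm.model.HIC_ASM_4.306, with 33.2, 45.8 and 54.4 CPM against 131.8 and 134 CPM in XR GPiPSC, a log2 fold change of -1.58 ± 0.28 (SE). So was evm.model.HIC_ASM_4.64, with 13.0, 10.9 and 19.4 CPM against 38.7 and 42.6 CPM (-1.49 ± 0.26, SE). Higher in LB was evm.model.HIC_ASM_4.423, with 15.5, 20.4 and 8.41 CPM against 0.772 and 1.17 CPM (3.91 ± 0.71, SE), a change opposite to that of the block. Non-overlap of the groups was a condition for naming these 3 models. Their calls depended on having both XR GPiPSC libraries in the fit. With LB GPiPSC replicate 3 left out the log2 fold changes of models 306, 64 and 423 were -1.74, -1.75 and 4.20, and all 3 remained called.

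BACL control stood below XR GPiPSC in the block. The members' median log2 fold change was -0.59 and that of the comparison models 0.00, and 7 members were higher and 51 lower in BACL control, 2.50% and 18.2% of 280, against 6.14% and 11.3% of all models. Leaving out BACL control replicate 1 or 2 lowered the number called. With only the libraries compared, 186 were called in place of 58, of which 27 were higher and 159 lower. Model 423 rose, at 51.8 and 51.3 CPM in BACL control (log2 fold change 5.72 ± 0.77, SE). Of the members with at least 10 counts in every library compared, one that was called higher was evm.model.HIC_ASM_4.362, at 21.3 and 16.5 CPM against 5.86 and 6.81 CPM, a call that was lost with any 1 of these 4 libraries left out. Model 306 had 8.96 and 9.06 CPM in BACL control (-3.88 ± 0.36, SE), and in BACL-CHIR99021 it had 106 and 113 CPM. Model 50 fell by 3.04 ± 0.55 (SE) on the log2 scale. BACL LB GPiPSC against LB GPiPSC had 5 members higher and 30 lower, 1.79% and 10.7%, against 1.79% and 7.70% of all models, with medians of -0.19 and -0.020. Without LB GPiPSC replicate 3 the members' median was 0.020, with 5 higher and 13 lower against 1.37% and 6.38% of all models.

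Early in reprogramming the block stood lower, unevenly along its length. Its runs had median deviations from -0.95 to 0.22 at stage I day 8, and the comparison runs from -0.73 to 0.36. Only 1 run of members lay below all comparison runs, so the rest of the scaffold was uneven too. At stage I day 8, 35 members were higher and 103 lower than in the mean of LB PF and XR PF, 12.5% and 36.8% of 280, against 26.0% and 25.6% of all models. Of the comparison models on the same scaffold 22.8% were higher and 31.8% lower, so part of the fall was shared. The members' median log2 fold change was -0.51 and that of the comparison models -0.13. On log2(TPM + 1), 8.61% of the members' calls were higher against 25.4% on counts, while the share among the calls of all models went from 50.3% to 28.8%. Model 127 fell from 117 to 181 CPM in the fibroblast libraries to 3.38 and 4.98 CPM (log2 fold change -4.98 ± 0.33 SE, adjusted p = 1.33e-09 by edgeR), and evm.model.HIC_ASM_4.209 from 5.48 to 48.1 CPM to 0.626 and 1.66 CPM (-4.73 ± 0.73 SE, adjusted p = 4.47e-05). Against that direction evm.model.HIC_ASM_4.206 stood at 40.2 and 54.2 CPM, where fibroblasts had 0.0820 to 0.464 CPM (adjusted p = 2.58e-10 by edgeR), and evm.model.HIC_ASM_4.286 at 20.9 and 22.3 CPM, where they had 0.186 to 2.42 CPM (adjusted p = 1.24e-10). The number of calls was lower with stage I day 8 replicate 1 left out. With only the libraries compared it was 70 in place of 138. Against the mean of the other groups, 59 members were higher and 97 lower at stage I day 8, 21.1% and 34.6%, against 32.9% and 26.2% of all models. The comparison models had 30.7% and 28.6% in that comparison. There evm.model.HIC_ASM_4.534 had 17.1 and 21.1 CPM against 45.7 to 541 CPM in all other libraries, a log2 fold change of -3.23 ± 0.29 (SE, adjusted p = 1.6e-08 by edgeR). On log2(TPM + 1), 11.2% of the members' calls were higher against 37.8%, where the share over all models went from 55.7% to 28.6%. Without LB GPiPSC replicate 3, 60 members were higher and 95 lower against 33.7% and 25.5% of all models. The number called was lower without stage I day 8 replicate 1.

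Stage I day 24 and the day 16 control stood above stage I day 8. At day 24 of stage I, 56 members were higher and 29 lower than at day 8, 20% and 10.4%, against 18.6% and 13.9% of all models, with medians of 0.35 over members and 0.13 over comparison models. The comparison models had 19.9% higher and 14.1% lower, so the share of members called higher was near the background. The median over all models was 0.15. The level of evm.model.HIC_ASM_4.492 rose from 1.88 and 3.63 to 15.8 and 32.6 CPM (log2 fold change 3.12 ± 0.53 SE, adjusted p = 0.000167 by edgeR), and in both GPiPSC groups it stood at 28.8 to 68.0 CPM. Model 206 fell again, to 2.53 and 3.08 CPM (-4.06 ± 0.45 SE, adjusted p = 1.62e-06). Without stage I day 8 replicate 1 fewer members were called. When the fit held only these groups, 38 were called in place of 85. In the day 16 control, 114 members were higher and 27 lower than at stage I day 8, 40.7% and 9.64%, against 23.0% and 20.2% of all models, with medians of 0.67 and 0.29. Of the comparison models 27.7% were higher and 15.9% lower. Model 209 was back at 24.2 and 26.0 CPM (4.41 ± 0.75 SE, adjusted p = 0.000425), and evm.model.HIC_ASM_4.335 fell from 31.8 and 27.3 to 4.36 and 2.27 CPM (-3.15 ± 0.45 SE, adjusted p = 8.67e-05). On log2(TPM + 1), 92.1% of the members' calls in this comparison were higher against 80.9%, and over all models the share went from 53.2% to 82.3%. Far fewer members were called without stage I day 8 replicate 1, and fewer without control day 16 replicate 2.

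The lowest point was stage II day 8. Against the mean of the other groups, 41 members were higher and 113 lower, 14.6% and 40.4%, against 37.0% and 26.6% of all models, with medians of -0.59 over members and -0.23 over comparison models. Of the comparison models 27.8% were higher and 32.2% lower. On log2(TPM + 1), 5.45% of the members' calls were higher against 26.6%, and of all models' calls 24.5% against 58.2%. Without LB GPiPSC replicate 3, 44 members were higher and 116 lower against 36.5% and 27.4% of all models. The runs of models 10 to 81 and 439 to 545 had median deviations of -1.38 and -1.29 at stage II day 8, below the lowest comparison run at -1.04, while models 85 to 153 stood at -0.061. Lower members were evm.model.HIC_ASM_4.384, with 0.693 and 0.325 CPM against 3.25 to 85.4 CPM in the other libraries, and evm.model.HIC_ASM_4.478, with 0.594 and 0.65 CPM against 3.80 to 126 CPM. Their adjusted p-values by edgeR were 6.21e-05 and 7.74e-05. In the opposite direction evm.model.HIC_ASM_4.165 stood at 131 and 169 CPM, where no other library exceeded 75.04 CPM (log2 fold change 2.45 ± 0.22 SE, adjusted p = 3.21e-08).

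**Figure D5:**
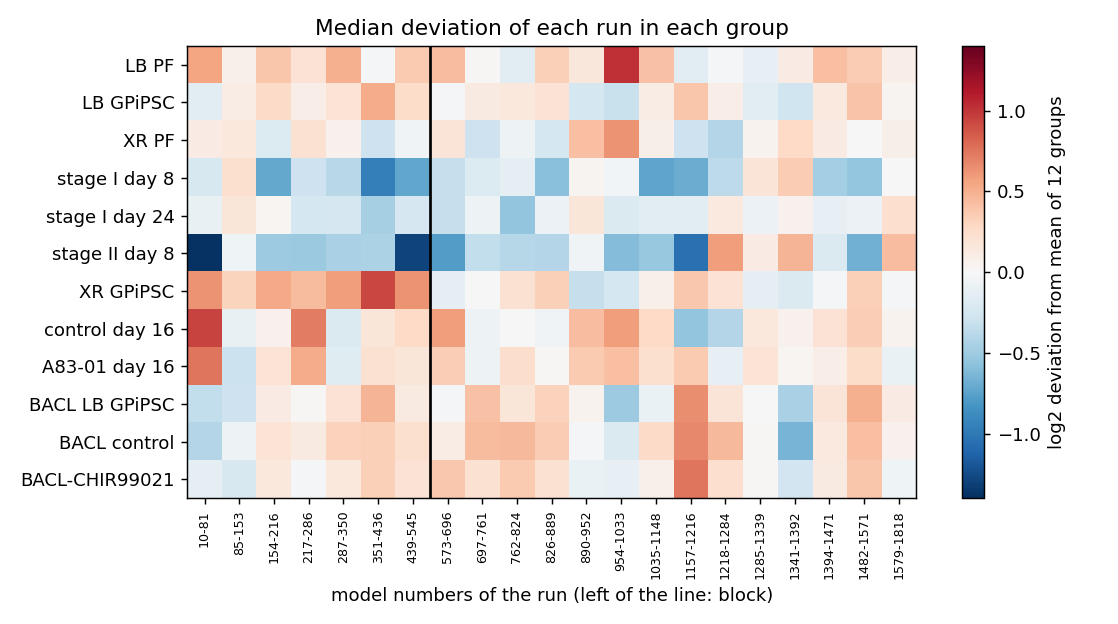
Median log2 deviation from the mean of the 12 groups (colour) for the 7 runs of members and 14 comparison runs (horizontal axis, by model numbers) in each group (vertical axis). XR GPiPSC is above 0 in all 7 runs of members, from 0.31 to 0.93, and stage II day 8 is below 0 in all 7, from -1.38 to -0.061.

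From stage II day 8 to the mean of LB and XR GPiPSC, 139 members were higher and 40 lower in GPiPSC, 49.6% and 14.3%, against 31.0% and 36.3% of all models. Of the comparison models 39.2% were higher and 28.8% lower. The medians were 1.03 over members and 0.33 over comparison models, and without LB GPiPSC replicate 3 the difference between them was 0.57 in place of 0.70, with 136 higher and 41 lower against 31.1% and 35.3% of all models. On log2(TPM + 1), 96.3% of the members' calls were higher against 77.7%, and of all models' calls 76.5% against 46.1%. Model 50 rose from 0.99 and 1.08 CPM by 5.31 ± 0.63 (SE) on the log2 scale, and evm.model.HIC_ASM_4.69 had 1.19 and 0.325 CPM at stage II day 8 and 21.5 to 46.6 CPM in GPiPSC. The level of evm.model.HIC_ASM_4.72 fell from 264 and 341 CPM to 31.2 to 48.7 CPM (-2.85 ± 0.32, SE). It had been highest at stage I day 8, at 628 and 482 CPM. In the other 16 of the 26 comparisons examined, the members' median differed from that of the comparison models by -0.17 to 0.20.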

How the data were processed

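Per the labels' protocols, the library kit was NEBNext Ultra. Kallisto is the tool that the submitters' processing notes name; for its version, index and build the entry is "not given in the sources used here". Per the file headers, each of the 25 deposited tables gives an estimated count and a TPM value for each model; both were made by the authors' tool. Estimated counts were rounded. TPM values served only alternatives. The members and lists were chosen with earlier results of these data known.

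Since 11 of the 12 groups hold 2 libraries, the 25 libraries shared 1 fit, leaving 13 residual degrees of freedom. After filterByExpr, 17225 models remained; these were scaled by TMM and tested with edgeR 4.0.16 in R 4.3.3 (quasi-likelihood F test, robust = TRUE). P-values were adjusted over all of these models by Benjamini-Hochberg, with a call at an adjusted p under 0.05. Each SE is the log2 fold change over the root of F. CPM are TMM-scaled, and log2 CPM has a prior count of 2. The step was tested on simulated counts. No symbol or sequence could be matched to a model (RefSeq table of assembly ASM200744v3), and reads shared by near-identical models cannot be told apart. Exact permutation of 2 against 2 libraries cannot reach 0.05.

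Named models are the 5 with the highest level, the models at the ends, and per comparison given in full (medians of members and comparison models at least 0.2 apart, 10 of 26) up to 2 called members per direction with the largest fold changes, no overlap, 10 counts or more on the lower side and 10 CPM or more on the higher; not all are printed. Models with at most 3 counts in a compared library get no printed fold, except that of the difference between LB and XR changes. The 9 suffixed or joined identifiers in the number range were not counted as members. No 2 replicates agreed within sampling noise (chi-square per degree of freedom from 1.20 to 119). As alternatives, calls were made with a replicate block, with only the libraries compared, with DESeq2 1.42.0, without the filter, with RLE size factors, by limma-trend (limma 3.58.1) on log2(TPM + 1) and log2(TPM + 0.1), and with each library left out, and for the offset other levels, references, comparison models and summaries. The ratio to the BACL groups, the offset with suffixed identifiers and the test of LB against XR changes were added after seeing the data.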

Additional observations from a re-analysis of the deposited data

Results flagged for a closer look

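For 7 named members the LB and XR changes from PF to GPiPSC differed in the test of the difference itself (edgeR, adjusted over 17225 models). Over all 280 members tested 2.14% were higher and 8.57% lower in LB, against 5.56% and 3.09% of all models. Many named members were picked for large changes, some of them between these groups, so nothing is read from their number. The log2 change in LB was lower than in XR by 2.04 for evm.model.HIC_ASM_4.127 (LB minus XR -2.04, adjusted p = 0.0269), although the model fell in both, from 181 and 122 CPM to at most 0.257 CPM in LB. For evm.model.HIC_ASM_4.64 it was -2.43 (adjusted p = 0.00078): LB PF had 102 and 141 CPM and LB GPiPSC 10.9 to 19.4 CPM, where XR PF had 73.5 and 53.0 CPM and XR GPiPSC 38.7 and 42.6 CPM. For evm.model.HIC_ASM_4.286 it was -3.20 (adjusted p = 0.00051), with XR PF at 0.404 and 0.186 CPM, and for evm.model.HIC_ASM_4.416 it was -3.37 (adjusted p = 0.0111), with LB PF at 9.43 and 2.06 CPM. The log2 change was higher in LB for evm.model.HIC_ASM_4.268 (7.45, adjusted p = 0.00119), evm.model.HIC_ASM_4.187 (3.85, adjusted p = 0.0394) and evm.model.HIC_ASM_4.117 (1.77, adjusted p = 0.0135). By group means model 268 was near absent in LB, at 0.082 and 0.23 CPM, and fell in XR from 31.6 to 0.41 CPM. Model 187 fell in both, from 2.95 to 1.23 CPM in LB and from 1.41 to 0.032 CPM in XR. Model 117 had 11.3 and 56.0 CPM in LB PF and LB GPiPSC, and 36.9 and 52.8 CPM in XR. The sizes for 4 of the 7 depend on the prior count, since a library compared had 3 counts or fewer. Of these, model 268 had at most 2 counts in LB PF and model 187 at most 1 count in XR GPiPSC. Model 127 had 1 to 4 counts in LB GPiPSC and model 286 had 2 and 5 counts in XR PF. Without LB GPiPSC replicate 3 all 7 remained called, at -2.32, -2.73, -3.22, -3.85, 7.53, 4.24 and 1.55 in the same order.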

How the results depend on the processing

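For XR GPiPSC the block offset kept its sign in every alternative run, while its size moved from 0.53 by more than the small SD between replicates in several. It was 0.505 with models of at least 20 CPM, 0.547 with a prior count of 0.5, 0.48 and 0.54 on log2(TPM + 1) and log2(TPM + 0.1), 0.46 and 0.62 against the mean of the PF or of the BACL groups, 0.57 against models on the other scaffolds and 0.697 with means in place of medians. For stage II day 8 (-0.40) it was -0.30 on log2(TPM + 1), -0.78 against models on the other scaffolds and -0.52 with means. For stage I day 8 (-0.21) it was -0.32 against the PF mean, -0.435 against the other scaffolds, -0.45 with means and -0.16 without the members fewer than 50 numbers from either end. The sign turned in BACL control (0.055 and 0.076) and BACL-CHIR99021 (0.057 and 0.026) with the other scaffolds and with means, as it did in BACL LB GPiPSC (0.090 and 0.17 in place of -0.020). It turned in BACL-CHIR99021 also against the BACL mean (0.034). Elsewhere it turned in some alternatives in A83-01 day 16 (0.0078, down to -0.052), control day 16 (0.017, down to -0.046), stage I day 24 (-0.072, up to 0.030) and XR PF (-0.085, up to 0.0083). With 1 library left out, XR GPiPSC ran from 0.51 to 0.56, LB GPiPSC from -0.038 to 0.22, stage I day 8 from -0.30 to -0.20 and stage II day 8 from -0.46 to -0.33.

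Numbers of members called moved in 4 comparisons outside the left-out libraries. For LB against XR GPiPSC (7) they were 33 with the replicate block, 0 with only the libraries compared, 16 by limma-trend on log2(TPM + 1) and 19 by DESeq2. The replicate block takes out LB GPiPSC replicate 3, the sole library with that number. With only the libraries compared, they were 70 for stage I day 8 against PF (138), 38 for stage I day 24 against day 8 (85) and 186 for BACL control against XR GPiPSC (58), and the cause was not tested. With 1 library left out the calls ran from 133 to 156 for XR GPiPSC against XR PF, 1 to 38 for LB against XR GPiPSC, 28 to 39 for BACL control, 73 to 148 for stage I day 8 against PF, 50 to 93 for day 24, 32 to 116 for control day 16, 144 to 184 for GPiPSC against stage II day 8, and 93 to 159, 91 to 161 and 115 to 164 for XR GPiPSC, stage I day 8 and stage II day 8 against the other groups. The deviations of same-numbered libraries had correlations from -0.71 to 0.56 over 66 pairs of groups, with 9 over 0.1 and 11 under -0.1. They shared no common direction, which does not settle whether the numbers pair samples. The replicate block moved no other count of members called by over 1.5 times. Over the comparisons, the log2 fold change of the median model among all ran from -0.44 to 0.55 on log2(TPM + 1) and from -0.071 to 0.094 with RLE, and on log2(TPM + 1) the share of higher calls among all models moved from 48.3% to 62.3% for XR GPiPSC against XR PF, 52.3% to 28.2% for LB against XR GPiPSC and 35.1% to 20.1% for BACL control.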
